A study of Mus musculus with 23 samples.

Results

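The core cell cycle genes of differentiating mouse epiblast-like cells are described here: cyclins of the A, B, D and E classes, cyclin-dependent kinases (CDKs), genes whose symbol starts with Cdkn, E2F factors, genes named Mcm plus a number, and Cdc6, Cdc20, Cdc25a, Cdc25b and Cdc25c. They were chosen by symbol alone, leaving out Cdkn1a, and each is represented by the probe set with the highest mean signal. Of 60 symbols in the RefSeq table that fit these names, 58 had a probe set that names them alone, and 54 of these had a signal above 100 on 3 or more of 23 arrays. These 54 are the members, out of 18194 genes named on the array. Ccnb3, Cdk3, Cdkn2a and Cdkn2c did not reach that level, and Ccnb1 and Cdk15 are not analysed here. The inhibitor Cdkn2b lay just inside the limit, with 3 arrays above it and a highest signal of 113.0, and the nearest below it were the inhibitors Cdkn2c and Cdkn2a, with highest signals of 54.6 and 48.2 and 0 arrays above it.

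Progress through the cell cycle is driven by CDKs bound to cyclins. D cyclins with CDK4 and CDK6 act in G1 and release the E2F transcription factors from the retinoblastoma proteins, E cyclins with CDK2 act at the entry into S phase, and A and B cyclins with CDK1 act up to mitosis. E2F factors switch on genes of DNA replication, among them the subunits of the MCM helicase and Cdc6, which loads it at origins, while CDK inhibitors of the Cip/Kip and INK4 families restrain the kinases. Pluripotent mouse cells are known for rapid divisions with a short G1.

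The arrays were Affymetrix Mouse Genome 430 2.0 chips of male C57BL/6 cells, hybridised with RNA that had been amplified as cDNA. Embryonic stem cells bearing the BV transgenes were turned into epiblast-like cells with activin A and bFGF (0 h) and then grown as floating aggregates in medium with serum replacement and LIF. The Wnt3-/- line (KO) was sampled with WNT3A at 50 ng/ml together with BMP4 at 500 ng/ml, with WNT3A alone, with BMP4 alone and without added cytokine. The Wnt3+/+ line (WT) was sampled with BMP4, with WNT3A and without added cytokine, each at 12, 24 and 36 h, and each line had 1 array at 0 h. Both lines carry the transgenes, and as 1 cell line stands for each genotype, an effect of Wnt3 cannot be told apart from one of the line. There was 1 array for each line, condition and time, so times stand in for replicates when conditions are compared, and conditions when times are compared.

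Signals are the deposited values in arbitrary units, with array medians of 36.8 to 41.4. Wnt3, the targeted gene, read 11 to 28 on the KO arrays and 10 to 146 on the WT arrays; which exons its probe set covers relative to the deletion was not checked. Of the epiblast markers, Pou5f1 (5914 to 9542) and Dnmt3b (4039.6 to 12855) were high on every array, Fgf5 (41.6 to 2019.8) exceeded 100 on 22 arrays and Otx2 (20.4 to 916.5) on 17, and Zic2 did not exceed 60.1. The summed signal of the 7 epiblast markers was 13420.0 to 23543 in KO titled BMP4+WNT3A, 16940.0 to 21183 in KO titled WNT3A and 24243 to 27162 in KO with BMP4, against 26537 to 28780.0 in KO without cytokine, and 13072 to 21097 in WT with BMP4 and 11510.0 to 22990.0 in WT with WNT3A, against 21822 to 28972 in WT without cytokine; its part in the results was not tested. Of the 7 fibroblast markers, Col1a2 exceeded 100 on 23 arrays (105.4 to 300.2), Thy1 on 19 (41.9 to 436.5) and Dcn on 6 (5.2 to 354.6), Col3a1 did not exceed 72, and Col1a1, Lum and Postn stayed at or below 18. Their sum was 311 to 909 on the later arrays, against 987 in KO and 861 in WT at 0 h. For 6 KO arrays the title and the array name disagree on the cytokines: the array names exchange WNT3A and BMP4+WNT3A. Id1, a BMP target, read 186, 256 and 1323 at 12, 24 and 36 h on the arrays titled BMP4+WNT3A and 5480, 7591 and 9345 on those titled WNT3A, against 145, 177 and 224 on KO arrays without cytokine. On KO arrays with BMP4 alone it read 5557, 8192 and 10156, and on WT arrays with WNT3A 189, 350 and 2077. These readings go against the titles and with the array names. The mismatch was not resolved here. Both groups are called by title, as "KO titled BMP4+WNT3A" and "KO titled WNT3A", and the title is not evidence of the cytokines added. The ratio of the Gapdh control probe sets near the 3' and 5' ends was 4.03 on the WT WNT3A 24 h array, 2.68 on the KO 24 h array without cytokine and 2.30 on the WT 36 h array without cytokine, and 1.09 to 1.71 on the others. In such bulk RNA, fewer cells of a type and less RNA per cell cannot be told apart.

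The upstream sequences of 8 members are shown as examples of the letters that E2F factors or mitotic complexes are known to bind. These members behaved differently over time, as given below. They are a selection: Cdk1 and E2f7 also hold the E2F motif and are not shown, and Ccnb2 is among 10 members with TTTGAA. Each stretch is 100 bases of the 250 bases before the annotated start, 5′ to 3′ on the gene's strand, from the RefSeq promoter table (GRCm38.p6). Capitals mark the E2F motif, searched as TTTCCCGC, TTTCGCGC, TTTGCCGC and TTTGGCGC on both strands, or, in Ccnb2 only, the cell cycle homology motif TTTGAA. In Mcm5 a TTTCGCGC overlaps a GCGCCAAA, the reverse complement of TTTGGCGC. The windows lie at chr8:75109314-75109413 (plus strand) for Mcm5, chr11:98907967-98908066 (plus) for Cdc6, chr9:109875466-109875565 (plus) for Cdc25a, chr10:128705138-128705237 (minus) for Cdk2, chr13:29986064-29986163 (minus) for E2f3, chr1:128359706-128359805 (minus) for Mcm6, chr5:138171995-138172094 (minus) for Mcm7 and chr9:70421669-70421768 (minus) for Ccnb2.
Mcm5: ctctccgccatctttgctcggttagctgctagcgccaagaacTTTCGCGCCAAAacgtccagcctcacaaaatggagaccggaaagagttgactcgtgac
Cdc6: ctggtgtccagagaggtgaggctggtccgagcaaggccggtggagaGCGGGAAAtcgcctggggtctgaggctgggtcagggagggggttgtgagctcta
Cdc25a: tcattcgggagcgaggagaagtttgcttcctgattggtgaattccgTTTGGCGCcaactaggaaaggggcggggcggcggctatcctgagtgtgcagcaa
Cdk2: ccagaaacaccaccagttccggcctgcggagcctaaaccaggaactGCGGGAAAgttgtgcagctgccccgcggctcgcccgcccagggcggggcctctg
E2f3: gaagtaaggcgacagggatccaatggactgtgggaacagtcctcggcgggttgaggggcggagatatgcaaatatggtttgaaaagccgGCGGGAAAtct
Mcm6: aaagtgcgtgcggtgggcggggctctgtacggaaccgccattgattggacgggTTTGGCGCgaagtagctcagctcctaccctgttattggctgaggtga
Mcm7: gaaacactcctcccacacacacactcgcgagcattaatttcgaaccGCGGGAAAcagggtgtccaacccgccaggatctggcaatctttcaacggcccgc
Ccnb2: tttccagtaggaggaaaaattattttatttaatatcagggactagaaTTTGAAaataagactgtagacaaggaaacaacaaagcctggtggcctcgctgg

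A promoter entry was matched for 42 of the 54 members. A member counted once if any of its entries held the motif, while the share of the table counts every entry, so the units differ. The E2F motif stood in the upstream bases of 9 of these 42 (Cdc25a, Cdc6, Cdk1, Cdk2, E2f3, E2f7, Mcm5, Mcm6 and Mcm7), or 21.4%, and in 1.86% of all 32851 promoters of the table. The TTTGAA motif stood in 10 of 42 members (23.8%) and in 16% of all promoters, and CCAAT, on either strand, in 28 of 42 (66.7%) and in 33.8%. A match describes these letters in this window and is not a measured binding site.

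The highest signal divided by the lowest over the 23 arrays had a median of 1.74 over the 54 members, against 1.95 over the 10667 named genes under the same level rule. It was under 1.5 in 16 members (29.6%, against 16.8% of those genes) and 3 or more in 6 members (11.1%, against 19.3%). The flattest were the MCM2-7 genes, whose products form the replicative helicase. Mcm7 spanned 8965 to 10369, a ratio of 1.16, and Mcm4, the widest of the 6, spanned 3281 to 5043. The median ratio of the 6 was 1.24, with 5 of 6 under 1.5. Bright probe sets were flat in general: of 635 genes at or above the lowest MCM2-7 mean, 68% were under 1.5, with a median of 1.37. Cdc20, an activator of the anaphase-promoting complex, spanned 6794 to 8192, and Cdk4, a D cyclin partner, 6208 to 8306.

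**Figure D1:**
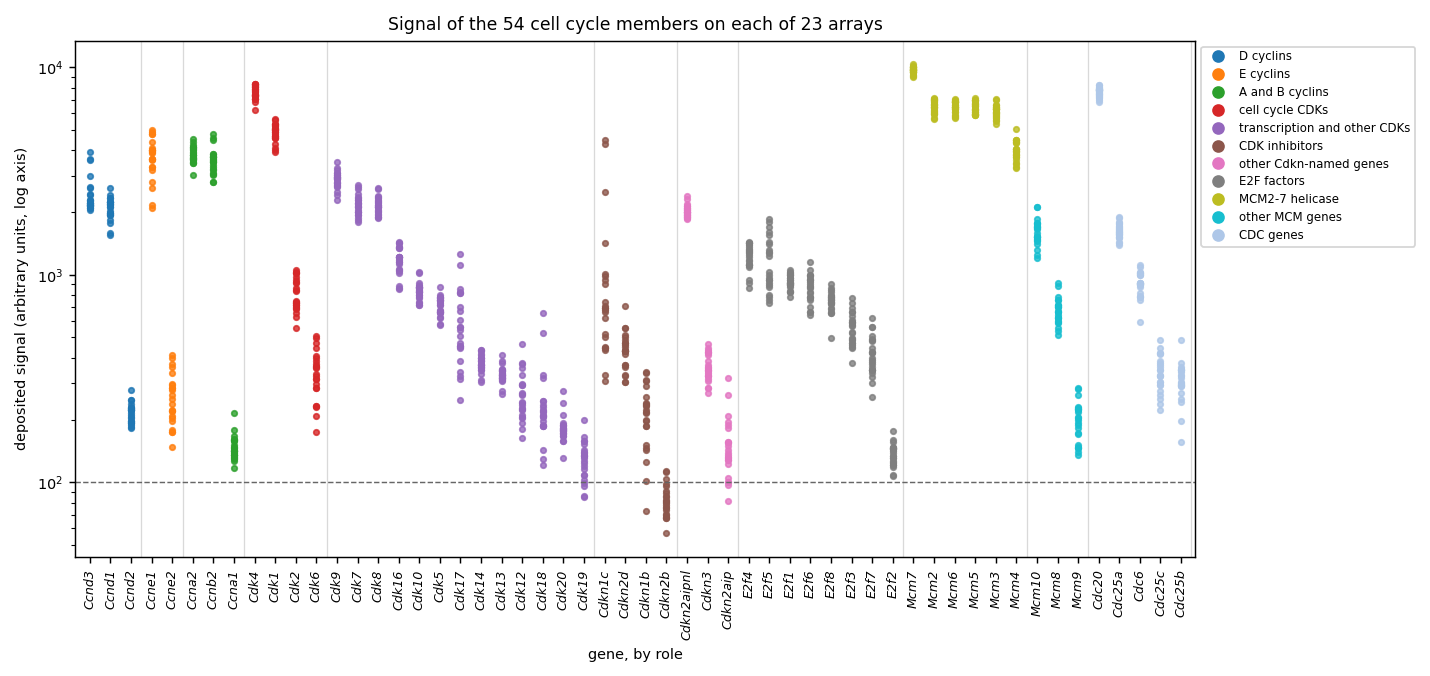
Deposited signal (log axis, arbitrary units) of each of the 54 members on each of 23 arrays, 1 point per array, with genes grouped by role and the dashed line at 100. The points of the MCM2-7 genes lie close together (Mcm7 between 8965 and 10369), and those of Cdkn1c reach from 309 to 4482; levels of different probe sets are not comparable.

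The 6 members with a ratio of 3 or more were Cdkn1c, Cdk18, Cdk17, Cdkn1b, Cdkn2aip and Cdc25b. Cdkn1c (p57), a Cip/Kip inhibitor, spanned 309 to 4482, a ratio of 14.5. Cdk18, a PCTAIRE kinase, spanned 122 to 657, a ratio of 5.39. Its relative Cdk17 spanned 251 to 1261, a ratio of 5.03. Cdkn1b (p27) spanned 73.0 to 340.1, Cdkn2aip, which encodes a protein that binds the product of Cdkn2a, 81.0 to 319.6, and the phosphatase gene Cdc25b 156.5 to 484.4. Among the remaining roles, the widest were Ccnd3 (2048 to 3902), Ccne2 (148 to 410), Ccna1 (117 to 215), Cdk6 (175 to 508.5), E2f5 (729 to 1859) and Mcm9 (136 to 284). Narrower spans were those of the S-phase cyclin gene Ccna2 (3040.3 to 4545), the transcription elongation kinase gene Cdk9 (2288 to 3492), Cdkn2aipnl (1859 to 2402) and Mcm10 (1201 to 2135).

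The question of the cytokine comparisons is how BMP4 and WNT3A change expression in each line. Cdk17 was the member that fell in all 5 cytokine comparisons. Its signals at 12, 24 and 36 h were 251, 315 and 340.1 in WT with BMP4 and 455, 508.5 and 446 in WT with WNT3A, against 671, 815 and 855 in WT without cytokine. Every array with either cytokine lay below every WT array without one. In KO cells it read 468, 560.3 and 449 on the arrays titled BMP4+WNT3A, 324, 383 and 455 on those titled WNT3A and 564, 826 and 545 with BMP4, against 815, 1113 and 1261 without cytokine. Only the BMP4 arrays of the KO overlapped those without cytokine. The fitted log2 differences (limma, ± SE, 3 times each) were -1.30 ± 0.15 for BMP4 in WT (adjusted p = 0.000194), -0.77 ± 0.15 for WNT3A in WT (0.0355), -0.73 ± 0.15 for BMP4 in KO (0.0393), -1.43 ± 0.15 for KO titled WNT3A (3.98e-05) and -1.15 ± 0.15 for KO titled BMP4+WNT3A (0.000379). Comparisons within a line share their arrays without cytokine.

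In these fits, which pool 21 arrays and 13256 genes, Cdk17 was 1 of 54 members called for BMP4 in WT (1.85%, against 3.42% of all genes), for WNT3A in WT (against 0.483%), for BMP4 in KO (against 0.558%) and for KO titled WNT3A (against 9.5%), and no other member passed there. The members' median difference was between -0.03 and 0.02 in these 4 comparisons. Cdk17 was selected among 54 by its result, and its share is no statement about the members as a group. Its second probe set had a mean signal of 3.1 and moved by -0.09 to 0.07, so the mean of both gave -0.69 for BMP4 in WT and -0.39 (adjusted p = 0.102) for WNT3A in WT. Without the 24 h arrays the limma calls were lost for BMP4 in WT (-1.30, adjusted p = 0.0623), WNT3A in WT (-0.80, adjusted p = 0.792), BMP4 in KO (-0.89, adjusted p = 0.575) and KO titled BMP4+WNT3A (-1.25, adjusted p = 0.0897), and kept for KO titled WNT3A (-1.43, adjusted p = 0.029). The summed signal of 6 nascent mesoderm markers was 953 to 2622 in KO titled BMP4+WNT3A, 1342 to 3993 in KO titled WNT3A and 295 to 338 in KO with BMP4, against 251 to 318 in KO without cytokine. It was 1605 to 10910.0 in WT with BMP4 and 863 to 4229 in WT with WNT3A, against 354 to 2318 in WT without cytokine, and its member Kdr did not exceed 20.1 on any array. The part of these markers in the Cdk17 result was not tested.

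**Figure D2:**
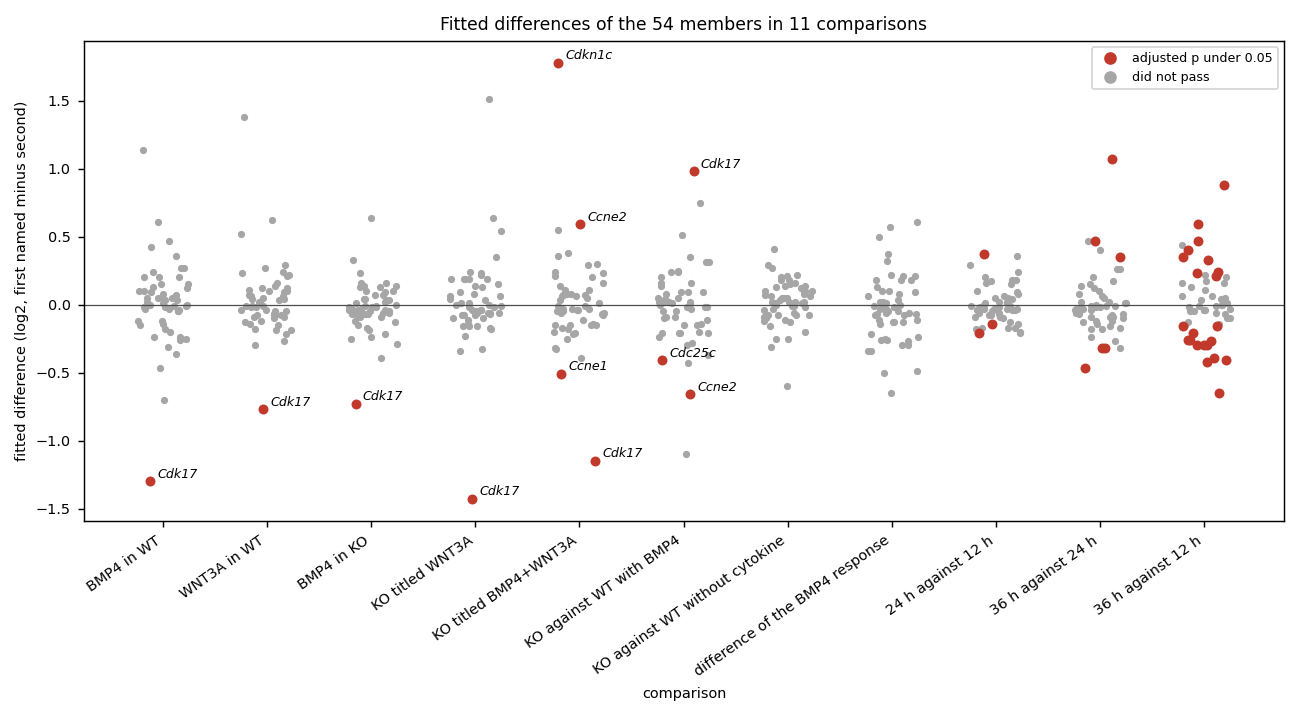
Fitted log2 difference of each of the 54 members in 11 comparisons, with members at an adjusted p under 0.05 in red and named in the first 8. Cdk17 is the low red point in all 5 cytokine comparisons (-1.30 for BMP4 in WT), and the members as a group centre on 0.

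In KO titled BMP4+WNT3A, 4 of 54 members passed, or 7.41% against 6.76% of all genes. Besides Cdk17 these were the E cyclins, which moved in opposite directions, and Cdkn1c. Ccne1 read 4096, 3327 and 2106 at 12, 24 and 36 h in KO titled BMP4+WNT3A, against 4804, 4771 and 3304 in KO without cytokine. Each lay below the array of its own time, although the groups overlapped. Ccne1 fell by 0.51 on the log2 scale (SE 0.13, adjusted p = 0.0236 by limma). Ccne2 read 263, 359.5 and 372 against 198, 219.8 and 175, with no overlap, and rose by 0.59 ± 0.17 (adjusted p = 0.0433). Cdkn1c read 695, 744 and 4269.9 against 443, 331 and 309, again with no overlap, and rose by 1.78 ± 0.50 (adjusted p = 0.0412). Its excess was greatest at 36 h, and without the 36 h arrays the difference was 0.82 (adjusted p = 0.091). None of these 3 calls was kept without the 24 h arrays, where Ccne1 gave -0.51 (adjusted p = 0.323), Ccne2 0.55 (adjusted p = 0.41) and Cdkn1c 2.08 (adjusted p = 0.316), or without the 3 arrays of high Gapdh ratio, where they gave -0.49 (0.0608), 0.59 (0.0854) and 1.93 (0.108), all by limma.

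Cdkn1c had its highest signals at 36 h with cytokines. In WT it read 1009.9, 666 and 2521 with BMP4 and 709, 989 and 4482 with WNT3A, against 443, 519 and 695 without cytokine. All 6 cytokine arrays lay above the array of their own time without cytokine. The differences of 1.14 ± 0.50 (adjusted p = 0.243) and 1.38 ± 0.50 (adjusted p = 0.233) did not pass limma's test. In KO it read 942, 904 and 1428 on arrays titled WNT3A (1.51 ± 0.50, adjusted p = 0.0663) and 680, 452 and 622 with BMP4 (0.64 ± 0.50, adjusted p = 0.73). The summed signal of 5 endoderm markers was 547 to 1887 in WT with WNT3A and 571 to 2722 in KO titled BMP4+WNT3A, the groups with the highest Cdkn1c signals, against 217 to 1333 in WT and 192 to 255 in KO without cytokine. It was 216 to 292 in KO titled WNT3A and 232 to 639 in WT with BMP4, where Cdkn1c read 2521 at 36 h. The highest signals were 2385.4 for Foxa2, 342.5 for Gata4, 121.1 for Sox17 and 103.3 for Cer1, and Gata6 exceeded 100 on 1 array. The markers' part in this result was not tested. Cdk18 had its highest signals on the same arrays, with 207, 187 and 657 in WT with WNT3A and 221, 187 and 526 in KO titled BMP4+WNT3A, against 144, 209 and 197 in WT and 218, 231 and 189 in KO without cytokine, and it did not pass in either comparison.

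**Figure D3:**
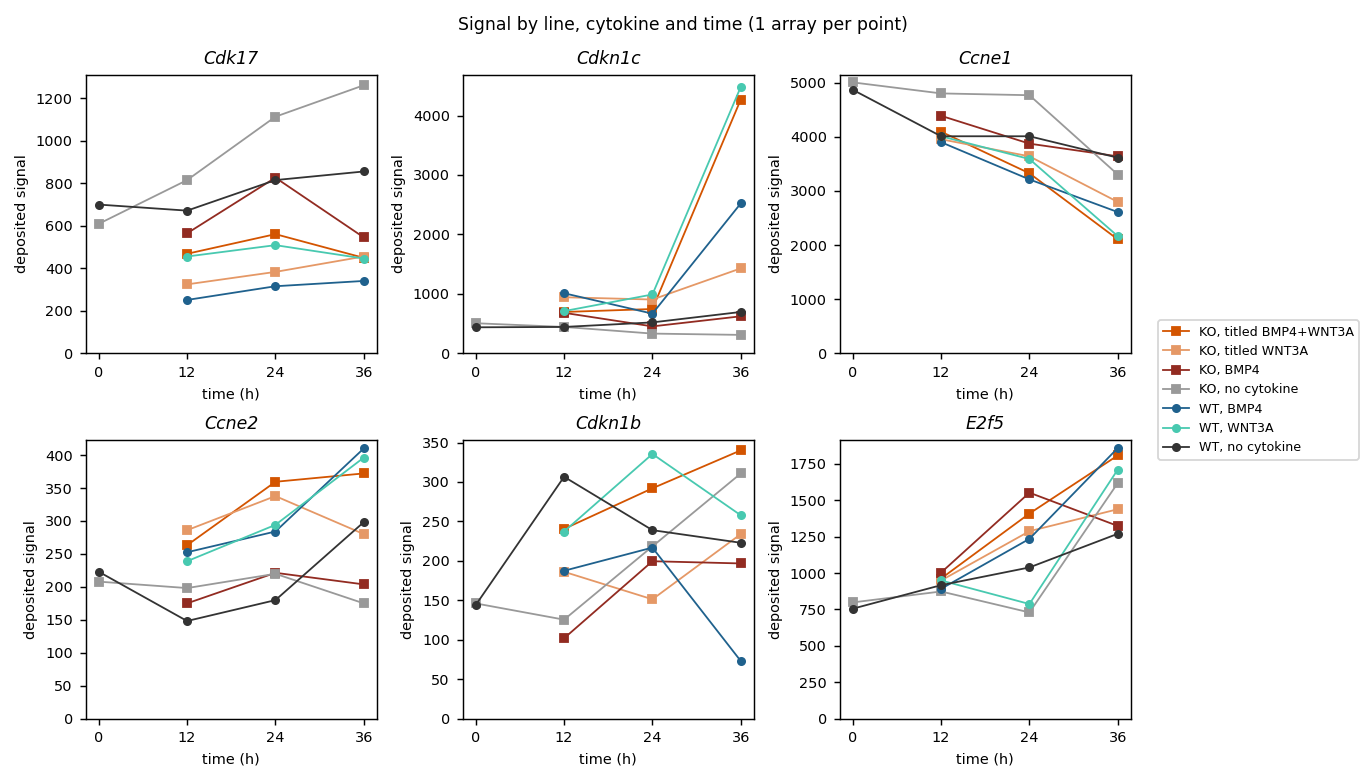
Deposited signal against time for 6 members, 1 array per point, with a line for each condition and the 0 h array joined to the condition without cytokine. Cdk17 without cytokine lies at the top (up to 1261 in KO), and Cdkn1c reaches 4269.9 in KO titled BMP4+WNT3A and 4482 in WT with WNT3A at 36 h.

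The loss of Wnt3 was compared with WT under BMP4 and without cytokine. With BMP4, 3 of 54 members passed, or 5.56% against 7.23% of all genes. Cdk17 read 564, 826 and 545 in KO with BMP4, against 251, 315 and 340.1 in WT with BMP4, without overlap, and was higher by 0.98 ± 0.15 (adjusted p = 0.000934, limma). Ccne2, which pairs with CDK2, read 175, 221 and 204 in KO, against 252.5, 284 and 410.1 in WT, also without overlap, and was lower (-0.66 ± 0.17, adjusted p = 0.0244). Cdc25c, a phosphatase that activates CDK1 at mitosis, read 276, 239 and 347 in KO, against 294, 347 and 484 in WT, and was lower (-0.41 ± 0.12, adjusted p = 0.0412), with overlapping groups. All 3 calls were lost without the 24 h arrays, where limma gave 0.84 (adjusted p = 0.141), -0.77 (0.211) and -0.31 (0.334). The split of 1 higher and 2 lower was 2 and 0 without quantile normalization and 1 and 1 with median centring, where 6.59% and 6.32% of all genes passed. Cdc25c was not called in 9 of 14 other settings, both scalings among them, and Ccne2 in 5, among them without quantile normalization.

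Without cytokine, 0 of 54 members passed limma's test, with a smallest adjusted p of 0.245, against 0.0981% of all genes. Of the members, 6 had an unadjusted limma p under 0.05 (11.1%, against 12.3% or 1626 of all genes): the helicase genes Mcm3 (0.22 ± 0.08), Mcm4 (0.27 ± 0.09) and Mcm6 (0.15 ± 0.07), Mcm8 (0.29 ± 0.13), which acts in recombination, Cdk8, a kinase of the Mediator complex (0.18 ± 0.08), and Cdk17 (0.41 ± 0.15). These 6 were named after their values were seen. The BMP4 response itself, KO minus WT, passed for 0 members and 0% of all genes, with 2 members at an unadjusted limma p under 0.05 (3.7%, against 5.89% or 781 of all genes): Ccne2 (-0.65 ± 0.24) and Cdk17 (0.57 ± 0.21). The lower Cdk17 with BMP4 was thus not shown to differ in size between the lines (adjusted p = 0.717 by limma).

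More members passed between 36 h and 12 h than in any cytokine comparison, at a share close to that of all genes; a time contrast averages 7 arrays a side and a cytokine contrast 3. Between 36 h and 12 h, 22 of 54 members passed limma's test, or 40.7% against 38.7% of all genes. Of these, 9 were higher at 36 h, beside 17.8% of all genes, and 13 were lower, beside 20.9%. The split depends on scaling: without quantile normalization 17 members were higher and 6 lower, and with median centring 14 were higher and 7 lower. Of all genes, 40.5% and 37.8% passed under these scalings. The deposited values rose by a median of 0.09 over all genes, and by 0.11 over the members. The 15 members called under all 3 scalings were Ccnb2, Ccnd3, Cdc25c, Cdk2, Cdkn1c, Cdkn2aip, E2f3, E2f5 and Mcm9, which rose, and Ccnd1, Ccne1, Cdk7, E2f4, Mcm2 and Mcm5, which fell. Without the 3 arrays of WT with BMP4 14 members passed, without those of KO titled BMP4+WNT3A 13, and on leaving out the 6 KO arrays with mismatched titles 10. Shares of all genes in these refits are not given here, so a drop in the members cannot be told apart from one in all genes. In 12 of the 22 the change had 1 sign in all 7 conditions. The 22 were picked by this same contrast, and the count was not made over all genes, so it is no statement about the members. Arrays of 36 h and 12 h did not overlap in the normalized values of 3 members that rose (Cdk2, E2f5 and Mcm9), beside 3.82% of all genes, and of 3 that fell (Ccne1, Cdk13 and Mcm5), beside 5.07%.

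Among the cyclins, Ccne1 changed most. Over the 7 conditions its lowest, median and highest signals were 2106, 2798 and 3641 at 36 h, against 3902, 4012 and 4804 at 12 h. No 36 h array reached the 12 h range. Ccne1 fell by 0.65 on the log2 scale (SE 0.08, adjusted p = 2.12e-05), and its other probe set by 0.58. The fall was -0.47 ± 0.08 between 36 h and 24 h (adjusted p = 0.0043, limma). Ccne2 (175, 298 and 410 at 36 h, against 148, 239 and 286 at 12 h) did not pass (0.22 ± 0.11, adjusted p = 0.122).

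The D cyclins, which relay growth factor signals to CDK4 and CDK6, split. Ccnd1 read 1552, 1833 and 2352 at 36 h, against 2120.2, 2195 and 2336 at 12 h, and fell by 0.39 (SE 0.07, adjusted p = 0.000737); its other 2 probe sets gave -1.04 and -0.52. Ccnd3 read 2165, 2998 and 3902 at 36 h, against 2091, 2180 and 2436 at 12 h, and rose by 0.33 ± 0.10 (adjusted p = 0.0124), although a second, dim probe set gave -0.24. It rose in 5 of 7 conditions, most in WT with WNT3A (0.79), and fell in KO without cytokine (-0.08) and with BMP4 (-0.15). The call was lost in the KO conditions alone and without the arrays of WT with WNT3A. Ccnd2 did not pass. Ccnb2, a mitotic cyclin with the TTTGAA stretch shown above, rose by 0.21 ± 0.06 (adjusted p = 0.0161 by limma), and Ccna1 and Ccna2 did not pass. In KO without cytokine Ccnb2 fell (-0.12), and its call was lost in the KO conditions alone.

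Of the 4 cell cycle CDKs, Cdk2 rose. It read 861, 1017 and 1053 at 36 h, against 556, 695 and 734 at 12 h, with no overlap (0.35 ± 0.08, adjusted p = 0.00159). Cdk1, Cdk4 and Cdk6 did not pass. Among the 13 other CDKs, 3 fell and none rose: Cdk7, the CDK-activating kinase (-0.30 ± 0.06, adjusted p = 0.00136), Cdk13, which phosphorylates RNA polymerase II (-0.30 ± 0.08, adjusted p = 0.00856), and Cdk14, a membrane-associated kinase of Wnt signalling (-0.26 ± 0.08, adjusted p = 0.0177). Probe sets disagreed for Cdk7, where a dim set gave 0.29, and the other Cdk13 sets gave -0.12 to 0.12. Cdk13 and Cdk14 were not called without quantile normalization or with median centring.

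Of the inhibitors, Cdkn1c rose by 0.88 ± 0.32 (adjusted p = 0.0422 by limma). Its signals were 309, 1428 and 4482 at 36 h, against 443, 695 and 1009.9 at 12 h. The change ran from -0.65 in KO without cytokine to 2.60 in WT with WNT3A, so the 36 h arrays lay both above and below those of 12 h, and the call was lost on leaving out any of 5 of the 7 conditions. Cdkn1b, Cdkn2b and Cdkn2d did not pass. Cdkn2aip rose by 0.47 ± 0.13 (adjusted p = 0.00943).

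Of the 8 E2F genes, 2 rose and 3 fell. E2f5, which like E2f4 encodes a repressor that acts bound to retinoblastoma-family proteins, read 1269.5, 1618 and 1859 at 36 h, against 873, 949 and 1003 at 12 h. The groups did not overlap, and E2f5 rose by 0.59 ± 0.14 (adjusted p = 0.00309). Its other 2 probe sets gave 0.67 and 0.04. E2f4 read 861, 1113 and 1428 at 36 h, against 1113, 1305 and 1438 at 12 h, and fell by 0.42 (SE 0.09, adjusted p = 0.00207, limma).

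The activator E2f3 rose by 0.23 ± 0.08 (adjusted p = 0.0298 by limma), with most of the change before 24 h (0.37 ± 0.08 at 24 h against 12 h, adjusted p = 0.0063). Its call at 36 h against 12 h was lost in 10 of 20 other settings, among them the WT and the KO conditions alone. A second, dimmer E2f3 probe set (mean signal 145.4) gave 0.12 at 36 h and 0.02 at 24 h against 12 h. The activator E2f1 fell by 0.30 (SE 0.06, adjusted p = 0.001 by limma) and the late repressor E2f8 by 0.27 (SE 0.10, adjusted p = 0.0463), but neither was called without quantile normalization. E2f2, E2f6 and E2f7 did not pass.

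Of the MCM2-7 genes, Mcm5 and Mcm2 fell by small amounts. Mcm5 read 5874, 6081 and 6339 at 36 h, against 6252, 6936 and 7132 at 12 h. The deposited ranges overlapped slightly, and the normalized ones did not. Mcm5 fell by 0.21 (SE 0.03, adjusted p = 0.000104), and a second bright probe set gave -0.24. Mcm2 fell by 0.16 (SE 0.04, adjusted p = 0.00666 by limma). Mcm3, Mcm4, Mcm6 and Mcm7 did not pass, with the 6 genes between -0.21 and 0.05. Mcm9, which acts with Mcm8 in recombination, read 223, 231 and 284 at 36 h, against 136, 152 and 193 at 12 h, and rose by 0.40 ± 0.09 (adjusted p = 0.00218). Mcm10, a replication initiation factor, and Mcm8 did not pass.

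Of the CDC genes, Cdc25c rose by 0.24 ± 0.08 (adjusted p = 0.0197 by limma). The Cdc25c call was lost in 8 of 20 other settings, among them the WT and the KO conditions alone, and its second probe set gave 0.13. Cdc25a, the phosphatase that activates CDK2 (-0.16 ± 0.06, adjusted p = 0.0399), Cdc25b, an activator of CDK1 (-0.41 ± 0.15, adjusted p = 0.0334), and Cdc6 (-0.26 ± 0.10, adjusted p = 0.0498 by limma) fell, and all 3 calls were lost under both other scalings. Cdc25b read 156.5 in WT with BMP4 and 484 in KO with BMP4 at 36 h, the lowest and the highest of all arrays. Thus the members whose E2F motif is printed above differed: Mcm5, Cdc6 and Cdc25a fell, Cdk2 and E2f3 rose, and Mcm6 and Mcm7 did not pass. Cdk1 and E2f7, which hold the motif but are not printed, did not pass either. The calls were not equally firm. Of 20 other settings, Mcm5 was called in 19, Cdk2 in 17, E2f3 in 10, Cdc25a in 8 and Cdc6 in 3.

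**Figure D4:**
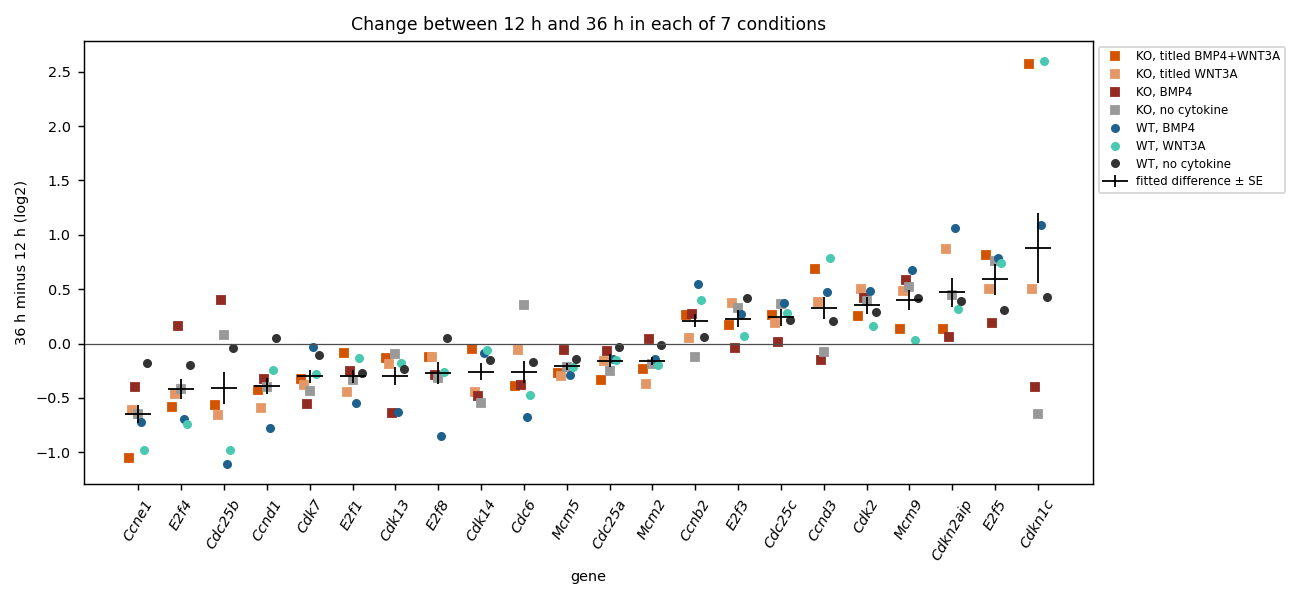
Change between 12 h and 36 h (log2, 36 h minus 12 h) of the 22 members that passed, with 1 point per condition and the fitted difference ± SE as a black cross. All 7 points of Ccne1 lie below 0 and all 7 of E2f5 above it, while those of Cdkn1c run from -0.65 to 2.60.

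Fewer members passed over the shorter steps. Between 24 h and 12 h, 3 of 54 passed (5.56%, against 12.2% of all genes): E2f3, above, Cdk7 (-0.21 ± 0.06, adjusted p = 0.04) and Mcm5 (-0.14 ± 0.03, adjusted p = 0.0113). The split of 1 higher and 2 lower was 3 and 1 without quantile normalization and 2 and 1 with median centring, where 12% and 11% of all genes passed. Cdk7 was not called in 13 of 20 other settings, both scalings among them. Between 36 h and 24 h, 6 passed (11.1%, against 11.3%). Ccnd3 (0.35 ± 0.10), Cdkn1c (1.07 ± 0.32) and Cdkn2aip (0.47 ± 0.13) rose, and Ccnd1 (-0.32 ± 0.07), Ccne1 and E2f4 (-0.32 ± 0.09) fell, with adjusted p of 0.0043 to 0.043 by limma. Without quantile normalization 8 were higher and 2 lower, and with median centring 7 were higher and 2 lower, where 11.9% and 10.3% of all genes passed. Fitted in the 3 WT conditions alone, 36 h against 12 h gave 9 members, in the 4 KO conditions alone 12, and in the 2 conditions without cytokine 0. These refits hold fewer arrays, and their shares of all genes are not given here. The change in KO minus that in WT passed limma's interaction test for 0 members and 0 genes, with 6 members and 1401 genes at an unadjusted p under 0.05.

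The step from 0 h to 12 h without cytokine has 1 array per line and time and no test. Cdk6, the other partner of the D cyclins, was the member past 0.5 (log2) in both lines. It read 234 in KO and 175 in WT at 12 h, against 396 in KO and 404.5 in WT at 0 h, a difference of -0.76 in KO and -1.19 in WT. That is 1 of 54 members beside 2.26% of all genes lower in both lines, and 0 members beside 2.5% of all genes higher. At 36 h without cytokine Cdk6 read 232 in KO and 508.5 in WT. The members' median change to 12 h was -0.02 in KO and -0.03 in WT.

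Genes that work beside the members in the cycle were taken from a list of 64, of which 63 were tested. Between 36 h and 12 h, 6 rose and 15 fell, or 33.3% against 38.7% of all genes. Without quantile normalization 13 were higher and 7 lower, and with median centring 10 and 9, so the direction of the list depends on scaling. The largest differences were Mybl2 (-0.81), a partner of E2F-regulated mitotic complexes, the atypical cyclin Ccng2 (0.76), Mycn (-0.55) and the origin protein Orc1 (-0.48). Between 24 h and 12 h, 1 rose and 7 fell (12.7%, against 12.2%; 2 and 4 under either other scaling), led by Mybl2 (-0.44), Tk1 (-0.39), Mki67 (0.39) and Gins2 (-0.32), and between 36 h and 24 h 1 rose and 5 fell (9.52%, against 11.3%; 3 and 1 without quantile normalization, 1 and 1 with median centring), led by Ccng2 (0.56), Lin54 (-0.43), Mybl2 (-0.37) and Orc1 (-0.32). The inhibitor Cdkn1a (p21), which the choice of members leaves out, read 1585, 1370.0 and 1520.2 in KO titled BMP4+WNT3A and 1342, 1067.5 and 1898 in KO titled WNT3A, against 340.1, 347 and 294 in KO without cytokine. Those groups did not overlap, with differences of 2.07 ± 0.23 (adjusted p = 0.000207) and 2.01 ± 0.23 (adjusted p = 8.15e-05 by limma).

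In KO titled WNT3A 2 of the 63 rose and 6 fell (12.7%, against 9.5% of all genes; 2 and 2 under either other scaling), led after Cdkn1a by Myc (1.32), Rb1 (-0.68) and the spindle checkpoint kinase Bub1 (-0.40). In KO titled BMP4+WNT3A 1 rose and 4 fell (7.94%, against 6.76%; 2 and 1 without quantile normalization, 1 and 2 with median centring), led after Cdkn1a by Mycn (-0.76), Tfdp2 (-0.37) and Bub1 (-0.36). With BMP4, KO cells had 6 higher and 1 lower than WT (11.1%, against 7.23%), led by Cdkn1a (-1.74), Mycn (1.32), Cdc7 (0.44) and Bub1 (0.43). Without cytokine Cdkn1a passed alone (-1.48 ± 0.23, adjusted p = 0.0253), and for BMP4 in WT Myc passed alone (0.79 ± 0.20, adjusted p = 0.0373 by limma), though not with median centring. No gene of the 63 passed for WNT3A in WT, BMP4 in KO or the difference of the BMP4 response.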

How the data were processed

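The deposited table holds an intensity (signal) for 45101 probe sets on 23 arrays, floored at 1 and on a 0.01 log2 grid; how the authors computed it is not given in the material at hand. Probe sets were named from the platform annotation (34958 with 1 gene, 932 with several, 9211 with none), and 34754 were matched to current symbols by gene identifier in RefSeq (GRCm38.p6). Each gene took its probe set of highest mean. Signals were quantile-normalized as log2(signal + 16); fold changes are on that scale. Genes above their array's median on 3 or more arrays were tested (13256) with limma 3.58.1 in R 4.3.3 on the 21 arrays of 12, 24 and 36 h, with 7 conditions and time as factors (12 residual degrees of freedom) and Benjamini-Hochberg adjustment over all genes; passing means an adjusted p under 0.05. No label names separate cultures, so p-values measure only the spread between these arrays, whose number limits the precision. With 1 array per condition and time, that spread includes any change of a condition's effect between times. A response that varied with time thus widens its own SE. The fit was tested on simulated data. Figures used matplotlib 3.10.9. Alternatives covered scaling, offset, filter, probe sets, variance trend, arrays left out and label exchange.

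The members and gene lists were chosen with earlier results of these data known. Named were all members that passed, the member with the highest mean and with the widest range in each role, and up to 4 other cell cycle genes that passed per comparison.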

Additional observations from a re-analysis of the deposited data

Results flagged for a closer look

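No group has 4 or more arrays, so single arrays were not tested as outliers. In 3 results every array or condition of KO moved one way and every one of WT the other. This rule was applied to the members alone, so how often all genes meet it is not known, and the count is no statement about the members. Cdkn1b changed by 0.58 in KO and -0.70 in WT between 12 h and 36 h, a difference of 1.27 ± 0.33 (log2, KO minus WT, limma interaction, adjusted p = 0.198), higher at 36 h in 4 of 4 KO conditions and lower in 3 of 3 WT conditions. E2f7 changed by 0.48 in KO and -0.17 in WT, a difference of 0.65 ± 0.19 (adjusted p = 0.24). Cdkn3, a phosphatase that acts on CDK2, responded to BMP4 by -0.24 in KO and 0.10 in WT, a difference of -0.34 ± 0.18 (adjusted p = 0.857 by limma). Its deposited signals, before normalization, lay in those directions at all 3 times. At 36 h they hardly differed, with 324 with BMP4 against 326.3 without in KO, and 433.5 against 418.8 in WT. None of the 3 passed the correction over all genes.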

How the results depend on the processing

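Over 42 calls of a member in a comparison, 774 refits under other settings gave the same call in 512, the same direction without the call in 257 and the other direction in 5. Cdk17 in KO titled WNT3A passed in 14 of 14. Ccne1 and Mcm5 at 36 h against 12 h passed in 19 of 20, all but the fit of conditions without cytokine. The 5 reversals were Cdk7 at 24 h against 12 h with the mean of probe sets (0.00), and, at 36 h against 12 h without added cytokine, Ccnb2 (-0.03), Cdc25b (0.02), Cdc6 (0.09) and Cdkn1c (-0.11).

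Counts of members called moved as follows. They are given without the shares of all genes, so a change in the members cannot be told apart from one in all genes. As deposited, 36 h against 24 h gave 10. Without the filter, WNT3A in WT and BMP4 in KO gave 0 and KO titled BMP4+WNT3A gave 2, and with the stricter filter KO titled WNT3A gave 2. With the mean of probe sets, BMP4 in WT gave 2, WNT3A in WT 0, BMP4 in KO 0, KO titled WNT3A 3, 24 h against 12 h 1 and 36 h against 24 h 3. Without the variance trend, 24 h against 12 h gave 1. Without the 6 KO arrays of conflicting labels, WNT3A in WT, BMP4 in KO, 24 h against 12 h and 36 h against 24 h gave 0, and 36 h against 12 h gave 10. Without the 3 arrays of high Gapdh ratio, BMP4 in WT, KO titled WNT3A and 36 h against 24 h gave 2, WNT3A in WT and BMP4 in KO 0, and KO titled BMP4+WNT3A 1. Fitting only the arrays compared gave 0 for WNT3A in WT, KO titled BMP4+WNT3A and KO against WT with BMP4, 2 for BMP4 in KO and 5 for KO titled WNT3A. Exchanging the labels gave 4 for KO titled WNT3A and 1 for KO titled BMP4+WNT3A, by construction. WT conditions alone gave 0 for the shorter steps and 9 for 36 h against 12 h, KO conditions alone 0 for 36 h against 24 h and 12 for 36 h against 12 h, and conditions without cytokine 0 throughout. Leaving out the arrays of 1 time gave 0 to 3 for BMP4 in WT, 0 to 2 for WNT3A in WT, 0 for BMP4 in KO, 1 to 4 for KO titled WNT3A, 0 to 2 for KO titled BMP4+WNT3A, 0 to 3 for KO against WT with BMP4 and 0 to 1 for the difference of the BMP4 response. Leaving out 1 condition, chosen after seeing the data, gave 2 to 5 for 24 h against 12 h, 2 to 8 for 36 h against 24 h and 13 to 21 for 36 h against 12 h (14 without WT BMP4, 13 without KO titled BMP4+WNT3A). Fits with fewer arrays have fewer residual degrees of freedom; other causes were not tested. The labels give no replicate numbers; arrays of 1 time are matched through the time term in every fit of conditions. The scaling splits of the other cell cycle genes were added after seeing the data.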
